A study of Bos taurus with 2 samples.

Results

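H3K4me3 peaks that were called in both tender and tough longissimus dorsi (LD), but were much wider in the tender group, are described here. A pair was formed from 1 tender and 1 tough peak on chromosomes 1 to 29 that overlapped by at least 1 bp and had no other partner. It was kept when the tender peak was at least 2 times as long as the tough peak. Of 9252 such one-to-one pairs, 300 met this rule and are called tender-wide pairs below. They drew on 12607 tender and 11277 tough peaks on these chromosomes. The lengths chose the pairs, so the lengths, and every other tender against tough value, are given as descriptions without a test.

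The LD, the loin muscle, was taken from Angus steers harvested at about 12 months of age. The tender library was a pool of chromatin in equal parts from 4 steers, whose cooked steaks were cut at a Warner-Bratzler shear force of 6.77 ± 0.56 kg. The tough library was pooled likewise from 5 steers with a shear force of 19.93 ± 0.39 kg, and the kind of error behind either ± is not stated in the labels. The steers came from 1 closed herd, and the groups were the extremes of the steers measured, so they stand for tender and tough meat of this herd. Both libraries were made with the same antibody. There was 1 pooled library per group, so the spread between steers is not in the data and every value below lacks a check in replicates. Peaks are not replicates of a group.

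Trimethylation of lysine 4 on histone H3 is placed by the SET1 and MLL family of methyltransferases and is found mainly around the transcription start sites of active genes. The mark usually spans a few nucleosomes at the start of a gene, and it extends into the gene body at a subset of highly transcribed or cell identity genes. The width of a peak is therefore a property of the mark that is read beside its height. No annotation or sequence of the genome build behind these positions was used here, so genes, promoters and marker genes of muscle at the peaks were not analysed here.

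The tender-wide pairs were a small share of all pairs. They made up 3.24% of the 9252 pairs (95% exact interval 2.89 to 3.62%, counting error only). The same rule with the groups exchanged gave 1205 tough-wide pairs, or 13.0%. There were thus 4.02 tough-wide pairs for each tender-wide pair. The tough library was the deeper, with 1.17 times the mean reads per 200 bp of the genome. The peaks of its list had a median length of 2400 bp, against 2000 bp in the tender list. The part of depth in the numbers of tender-wide and tough-wide pairs was not tested. Among all pairs the tender peak was the longer in 2806, the tough peak in 5526, and 920 pairs had equal lengths. On each of the 29 chromosomes the tough-wide pairs outnumbered the tender-wide pairs.

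Each library was also deposited as a second list, taken here to be on bosTau4, the build named in the methods. Over all chromosomes the second lists held 12452 tender and 11395 tough peaks, and the lists analysed above held 12930 and 11535. The totals of the second lists equal the peak totals given in the paper, and those of the lists analysed above do not. There 301 of 8874 pairs (3.39%, 95% exact interval 3.03 to 3.79%) were tender-wide and 1174 (13.2%) were tough-wide. The share of tender-wide pairs in each list lay within the interval of the other. Both lists come from the same 2 libraries, so this closeness is not an independent check. When pairing was limited to peaks that scored at least 2 times the minimum of their list, 123 of 5747 pairs (2.14%) were tender-wide and 596 (10.4%) were tough-wide.

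**Figure D1:**
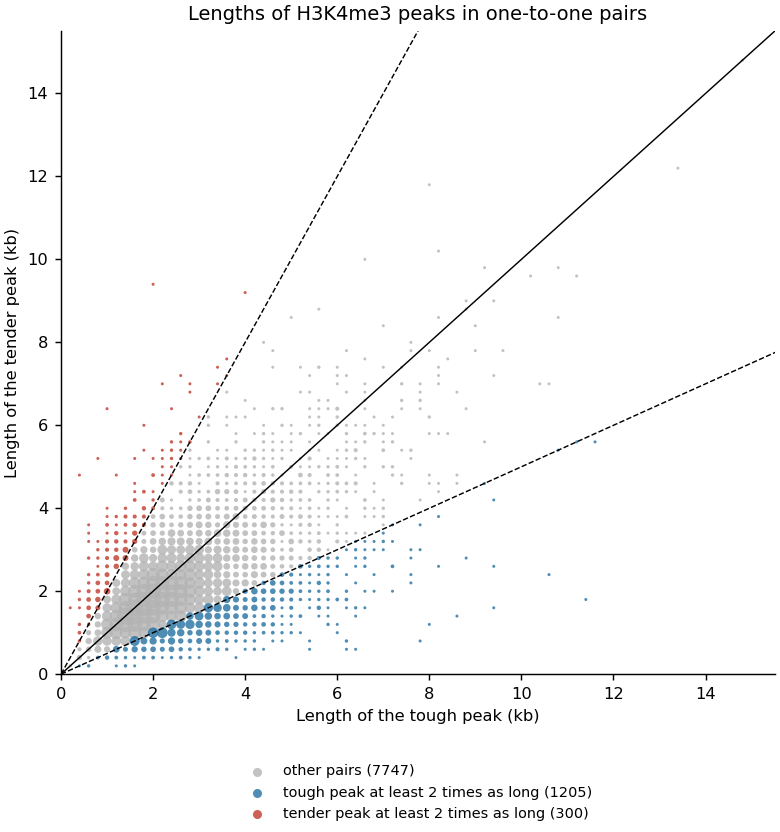
Length in kb of the tough peak (x axis) and of the tender peak (y axis) in all 9252 one-to-one pairs, with the area of a point growing with the number of pairs at that position. Solid line, equal lengths; dashed lines, a ratio of 2 in either direction. The 300 tender-wide pairs lie on or above the upper dashed line, most of them at tough lengths under 2 kb, and the 1205 tough-wide pairs lie on or below the lower one.

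The tender peaks of the tender-wide pairs had a median length of 3000 bp (quartiles 2200 and 3800) and ranged from 800 to 9400 bp. Their tough partners had a median of 1200 bp (quartiles 800 and 1600) and ranged from 200 to 4000 bp. Over all pairs the median tender length was 2000 bp and the median tough length 2400 bp. The tender peaks chosen by the rule were therefore longer, and their tough partners shorter, than the peaks of their own library at large. Together the 300 tender peaks covered 958.2 kb and the 300 tough peaks 389.0 kb.

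Most ratios lay close to the threshold. The median ratio was 2.33 (quartiles 2.13 and 2.75), with 177 pairs (59.0%) from 2 to below 2.5, 62 from 2.5 to below 3, 42 from 3 to below 4, and 19 at 4 or above. Of these, 56 pairs had a ratio of exactly 2, since lengths come in steps of 200 bp. The highest-scoring of them lay on chromosome 18 from 55989201 to 55996400 (7200 bp against 3600 bp) and on chromosome 8 from 61980001 to 61983200 (3200 bp against 1600 bp). Just outside the threshold, 120 pairs had a ratio of 1.8 to below 2. The nearest were on chromosome 25 from 27038401 to 27044600 and on chromosome 21 from 66927201 to 66933400, both with a tender peak of 6200 bp over a tough peak of 3200 bp.

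The share of tender-wide pairs followed the length of the tough peak, as the rule implies. Of 67 pairs with a tough peak of 600 bp, 33 (49.3%) were tender-wide. The share was 17.1% at 1000 bp (50 of 292) and 1.44% at 2000 bp (11 of 765). Of 185 pairs with a tough peak of 4000 bp, only 1 was tender-wide.

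The pair with the highest length ratio, 12, lay on chromosome 18, where the tender peak reached from 14051601 to 14056400 (4800 bp) and the tough peak from 14052801 to 14053200 (400 bp). It rested on 25 tender and 12 tough reads, with reads in 13 of 24 tender windows and in both tough windows. A window is a stretch of 200 bp in which the peak caller counts reads. On chromosome 24 the tender peak from 58658601 to 58660200 (1600 bp, 19 reads) stood over a tough peak 1 window long (200 bp, 11 reads), a ratio of 8. In that tough peak all 11 reads fell within 1 window, while the highest tender window held 9.

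The next ratios belonged to wider regions. On chromosome 11 the tender peak from 104330001 to 104335200 (5200 bp, 39 reads) had a tough partner of 800 bp with 14 reads, a ratio of 6.5. On chromosome 18 the tender peak from 38182801 to 38189200 (6400 bp, 37 reads) had a partner of 1000 bp with 13 reads, a ratio of 6.4. The fifth, on chromosome 10 from 68777601 to 68781200 (3600 bp, 19 reads), had a partner of 600 bp with 11 reads, a ratio of 6. In these 5 pairs the tough peaks held 11 to 14 reads, below the median of 25 tough reads over all pairs.

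By the difference in length, the first pair lay on chromosome 7 from 4094801 to 4104200. Its tender peak of 9400 bp held 59 reads spread over 34 of 47 windows, with at most 4 reads in a window. Its tough peak of 2000 bp held 13 reads in 7 of 10 windows, again with at most 4 in a window. The tender peak was thus wide and flat, and its highest window was level with that of the tough peak. This pair also had the highest read ratio of all tender-wide pairs, 5.29 after correction for depth. Another tough peak stood 1000 bp from the pair, and the nearest other peak of either library 600 bp from it.

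Of the other pairs with a large difference in length, that on chromosome 18 with a ratio of 6.4 has been described. On chromosome 2 a tender peak of 9200 bp from 131473001 to 131482200 (59 reads) ended at the same base as a tough peak of 4000 bp (24 reads), and all 5200 bp of difference lay on the lower side. On chromosome 21 from 10794401 to 10801400, 7000 bp with 46 reads stood against 2200 bp with 19 reads, with another tough peak 1400 bp away. On chromosome 15 from 40493801 to 40501000, 7200 bp with 46 reads stood against 2600 bp with 18 reads. All 5 pairs had more than 2 times as many reads in the tender peak before any correction for depth. Of these 5, only the chromosome 18 pair had a match in chromosome and lengths among the 5 largest differences of the second lists.

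**Figure D2:**
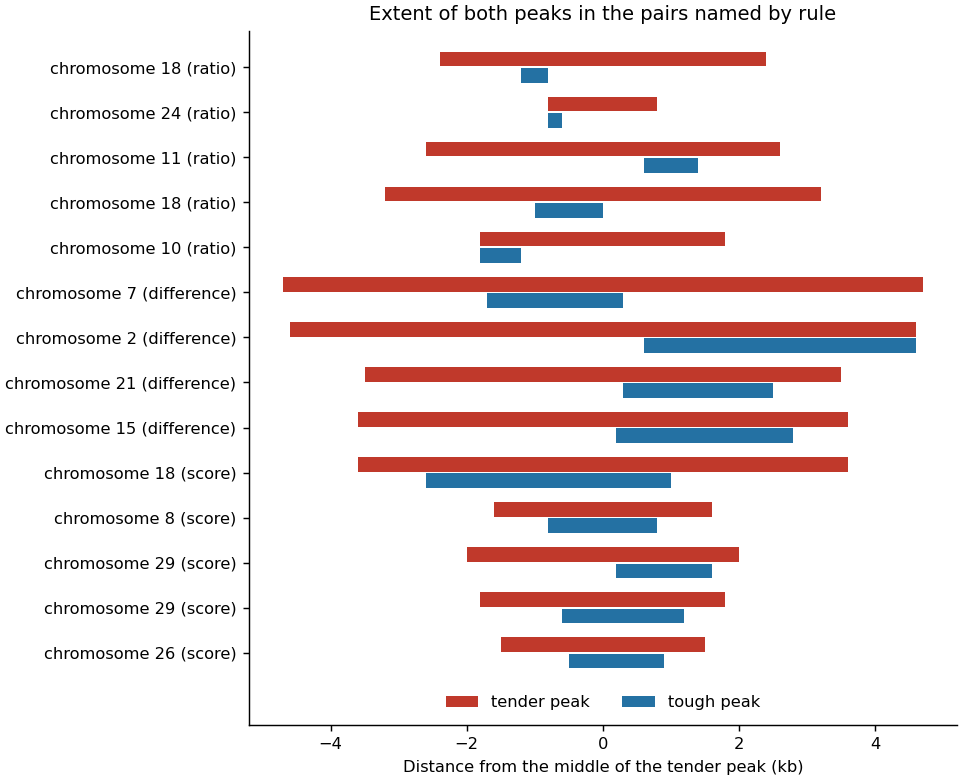
Extent of the tender peak (red) and the tough peak (blue) in the pairs with the highest length ratio, the largest difference in length or the highest tender score, each pair shown once and labelled by its chromosome. The x axis is the distance in kb from the middle of the tender peak. In every pair shown the tough peak lies inside the tender peak, in 3 of them with a shared edge.

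The tough peak lay wholly inside the tender peak in 252 of the 300 pairs (84.0%). In 183 of these pairs the tender peak went beyond the tough peak on both sides, and in 69 the peaks shared an edge. In the remaining 48 pairs the tough peak went past the tender peak on a side, by a median of 200 bp, the length of 1 window, and by 1000 bp at most. Over all 9252 pairs the tough peak lay inside the tender peak in 25%, a share that is bound to the lengths. In the tough-wide pairs the tender peak lay inside the tough peak in 1091 of 1205 (90.5%).

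The extra length was usually unequal on the sides. Among the 252 pairs with the tough peak inside, the tender peak reached a median of 1400 bp beyond it on the longer side and 200 bp on the shorter side. In 142 of them at least 80% of the extra length was on a single side. Neither direction along the chromosome was favoured, with more extra length at the lower end in 144 and at the upper end in 144 of the 300 pairs. The peaks differed equally at both ends in 4.00% of the tender-wide and 4.65% of the tough-wide pairs.

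The score of a peak is given by the peak caller SICER. It adds up, over the windows that hold a read, how unlikely their numbers of reads would be at the mean of the genome. In the tender-wide pairs tender peaks scored a median of 69.5 (quartiles 48.5 and 95.4) and tough peaks a median of 41.5 (quartiles 32.6 and 61.3). The medians over all pairs were 75.9 and 64.7. Of the tender peaks, 75 of 300 were in the lowest quartile of the tender scores of all pairs and 43 in the highest. Of their tough partners, 159 (53.0%) were in the lowest quartile of tough scores and 21 in the highest. A score sums over windows, so peaks chosen to be short have less of it. Per window the tough partners had a median score of 7.60 against 5.63 for the tough peaks of all pairs. That value divides by the length that chose the pairs, and short peaks have few windows without a read by construction. The narrow tender peaks of the tough-wide pairs likewise had a median of 8.89 per window, against 7.73 for the tender peaks of all pairs.

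The tender score was the higher in 261 tender-wide pairs (87.0%) and the tough score in 39, where the tender score was the higher in 63.6% of all pairs. The tender score was at least 2 times the tough score in 74 pairs, or 24.7%, where 7.51% of all pairs passed that ratio. The opposite was seen in 1 pair, against 1.82% of all pairs. That pair lay on chromosome 2 from 125389401 to 125391600, where a tender peak of 2200 bp scored 33.9 with 14 reads and a tough peak of 800 bp scored 68.9 with 23 reads. It was singled out after its values had been seen. The score ratios come from the same contrast as the rule and are not evidence independent of it.

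The highest tender score among the tender-wide pairs was 246.3, in the pair on chromosome 18 from 55989201 to 55996400, whose tough peak scored 176.3. The pair on chromosome 8 from 61980001 to 61983200 followed with 237.8 against 116.7. Chromosome 29 held the third and the fourth, from 44541801 to 44545800 (4000 bp, score 220.0, against 1400 bp and 198.5) and from 40929201 to 40932800 (3600 bp, score 219.6, against 1800 bp and 110.8). The fifth, on chromosome 26 from 45586201 to 45589200 (3000 bp against 1400 bp), scored 193.8 against 86.5. The first of the chromosome 29 pairs stood out from the other 4 in that its scores differed by a ratio of only 1.11 although the lengths differed by 2.86.

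By the tough score, the pairs on chromosome 29 (198.5) and chromosome 18 (176.3) came first. They were followed by chromosome 21 from 57328801 to 57332000 (3200 bp, score 191.9, against 1600 bp and 146.2), chromosome 19 from 20789401 to 20793200 (3800 bp, 150.8, against 1800 bp and 140.5) and chromosome 25 from 18796601 to 18800200 (3600 bp, 192.1, against 1800 bp and 134.5). The pair on chromosome 19 had nearly the same number of reads in both groups, 50 tender and 49 tough, over 19 and 9 windows. Similar numbers of reads, before correction for depth, were thus found over 3800 bp in the one library and over 1800 bp in the other.

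The number of reads in a peak follows from its score up to a score of 180, which gave the reads of both peaks in 289 of the 300 tender-wide pairs and in 8478 of all pairs. In 10 tender-wide pairs only the tender peak was above this limit, and in 1 both were, so the pairs left out were those with the strongest tender peaks. The mean number of reads per window of the genome was 1.17 times as high in the tough as in the tender library. In the tender-wide pairs the wider peak thus came from the shallower library, and in the tough-wide pairs from the deeper one.

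The 289 counted tender peaks had a median of 26 reads (quartiles 19 and 33, range 10 to 62), and the 299 counted tough peaks 16 reads (quartiles 13 and 23, range 9 to 64). The 289 pairs with both peaks counted held 7840 tender and 5228 tough reads. Over all pairs the medians were 26 and 25. The number of tender reads was thus level with that of all pairs, and the number of tough reads was lower. In the tough-wide pairs the narrow tender peaks held a median of 18 reads and the wide tough peaks 24. The rule chose the narrow peaks to be short, so their low read numbers are bound to it. In 199 of the 300 pairs the tough peak held 20 reads or fewer.

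More reads were counted in the tender peak in 251 pairs (86.9%), equal numbers in 10 and fewer in 28. Over all counted pairs the tender peak had more reads in 49.7% and fewer in 45%. After correction for depth, the tender reads were the higher in 94.5% of the tender-wide and in 69.2% of all counted pairs. After correction for depth, 95 of 289 pairs (32.9%) had at least 2 times the reads in the tender peak, where 6.02% of all counted pairs passed that ratio. Without the correction 65 pairs (22.5%) did, where 2.77% of all counted pairs passed. The median ratio of reads, corrected for depth, was 1.66, below the median length ratio of 2.33. Peaks that were at least 2 times as long thus did not usually hold 2 times the reads. The reads of a group are those inside its own peak, so the wider peak also had more room to collect them.

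The next highest read ratios after that of chromosome 7, chosen after their values had been seen, lay on chromosomes 8, 19, 14 and 5. On chromosome 8 from 104538601 to 104542200 a tender peak of 3600 bp held 41 reads and a tough peak of 1000 bp held 12, a ratio of 3.98 after correction for depth. On chromosome 19 from 34102001 to 34107400, 5400 bp with 40 reads stood against 2400 bp with 12 reads, a corrected ratio of 3.88. On chromosome 14 from 3584401 to 3588800, 4400 bp with 56 reads stood against 1800 bp with 17 reads, a corrected ratio of 3.84. On chromosome 5 from 19460201 to 19463000, 2800 bp with 52 reads stood against 1400 bp with 16 reads, a corrected ratio of 3.79. In each of these 4 pairs the tender peak held over 3 times the reads even before correction. The corrected ratio of reads was above the ratio of the lengths in all 4. At the other end, the shortest tender peaks of the tender-wide pairs were 800 bp long, on chromosome 19 from 20646401 (15 reads, against 400 bp and 13 reads) and on chromosome 23 from 30311801 (21 reads, against 400 bp and 19 reads).

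In the 28 pairs with fewer tender reads, the tender peaks had a median of 13 reads over 2600 bp and the tough peaks 17.5 reads over 1000 bp. Examples, chosen after their values had been seen, lay on chromosome 18 from 58200001 to 58201800 (1800 bp and 11 reads, against 800 bp and 18 reads) and on chromosome 6 from 7647801 to 7649600 (1800 bp and 15 reads, against 800 bp and 23 reads). In both, the tough reads were gathered in 4 windows and the tender reads were spread over 8 and 7.

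The tender peaks of the tender-wide pairs held a median of 8.33 reads per kb (quartiles 6.59 and 11.3), and their tough partners held 15 (quartiles 11 and 20). Over all pairs the order was the opposite, with 13.2 reads per kb of tender peak and 11 per kb of tough peak. The tough-wide pairs showed the mirror image, with 15.7 in the narrow tender and 7.50 in the wide tough peaks. Reads per kb divide by the lengths that chose the pairs, so these values describe the pairs and are no finding apart from the rule.

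In the tender-wide pairs a median of 10 tender windows held a read, or 70.0% of the windows of the peak, against 5 tough windows, or 100%. In the tough-wide pairs the medians were 90.0% in the narrow tender and 70.0% in the wide tough peaks. Over all pairs they were 81.8% and 80%. A peak must begin and end with a window that holds a read and may bridge at most 400 bp without one, so that short peaks have few empty windows by construction.

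The highest window of a peak, in reads without correction for depth, was determined without ambiguity in both peaks of 136 tender-wide pairs. The tender peak had the higher maximum in 55 of these, the tough peak in 59, and 22 were equal. The medians, over all tender-wide pairs in which a peak's own maximum was known, were 6 reads in the tender (175 pairs) and 7 reads in the tough group (223 pairs). Over all pairs with both maxima known, the tender peak was the higher in 56.1%, the tough peak in 29%, and 14.9% were equal. In the tough-wide pairs the tender peak was the higher in 65.7% and the tough peak in 20.7% of 641 pairs. The differences between these shares were not tested.

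**Figure D3:**
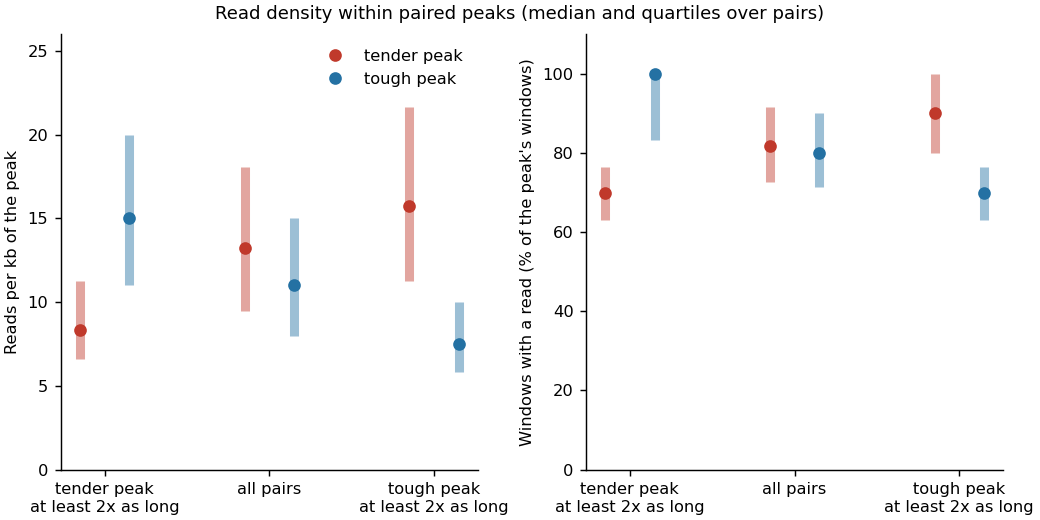
Reads per kb of the peak (left) and the percentage of a peak's windows of 200 bp that held a read (right), for tender peaks (red) and tough peaks (blue) in tender-wide pairs, all pairs and tough-wide pairs. Points are medians over pairs with counted reads and bars span the quartiles. In tender-wide pairs the tender peak is the sparser one (8.33 against 15 reads per kb), and in tough-wide pairs the tough peak is (7.50 against 15.7).

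Whole peaks were also compared by differences, tender minus tough, in the 289 counted pairs. The tender peak was longer than its partner by a median of 8 windows (quartiles 7 and 11). The number of windows with a read was higher in the tender peak by a median of 5 (quartiles 3 and 7), in 288 of the pairs, and equal in 1. The number of reads differed by a median of 8 (quartiles 3 and 13), from -11 to 46, without correction for depth. These are net differences between the libraries over whole peaks, and the reads inside the stretch that only the tender peak covered are not in the lists.

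Tender peaks of 5 kb or more occurred in 35 tender-wide pairs. These were 12.0% of the 292 pairs with such a broad tender peak, where 3.24% of all pairs were tender-wide. A long tender peak meets the rule more easily, so this share is bound to the rule. The tough partners of these 35 tender peaks ranged from 800 to 4000 bp, with a median of 2400 bp. None of these partners was broad, which the rule fixes, since no tender peak of the tender-wide pairs exceeded 9400 bp. The tough peak lay inside in 31 of the 35 pairs, where it did in 84.0% of all tender-wide pairs. The 32 of these pairs with reads counted in both peaks included 19 with at least 2 times the tender reads after correction for depth. That ratio was passed by 32.9% of the counted tender-wide pairs and by 6.02% of all counted pairs. Tough peaks of 5 kb or more occurred in 171 of the 1205 tough-wide pairs (14.2%). Tender peaks of that length occurred in 11.7% of the tender-wide pairs.

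The share of tender-wide pairs declined with the number of reads. Pairs were divided by the quartiles of their summed tender and tough reads. Of the 2285 pairs with 18 to 37 reads, 107 (4.68%, 95% exact interval 3.85 to 5.63%) were tender-wide. The shares in the following quartiles were 4.43% (89 of 2010), 3.01% (63 of 2096) and 1.44% (30 of 2087, interval 0.972 to 2.05%). The share of tough-wide pairs declined as well, from 21% in the lowest to 8% in the highest quartile. Of the 774 pairs with a peak above the score limit, 11 (1.42%) were tender-wide. In every one of these classes the tough-wide pairs were the more frequent, by 2.82 to 5.57 times. The sum includes the reads of the peak that the rule chose to be short, so these shares are not independent of the rule. The part of low read numbers in the width of single peaks was not tested.

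**Figure D4:**
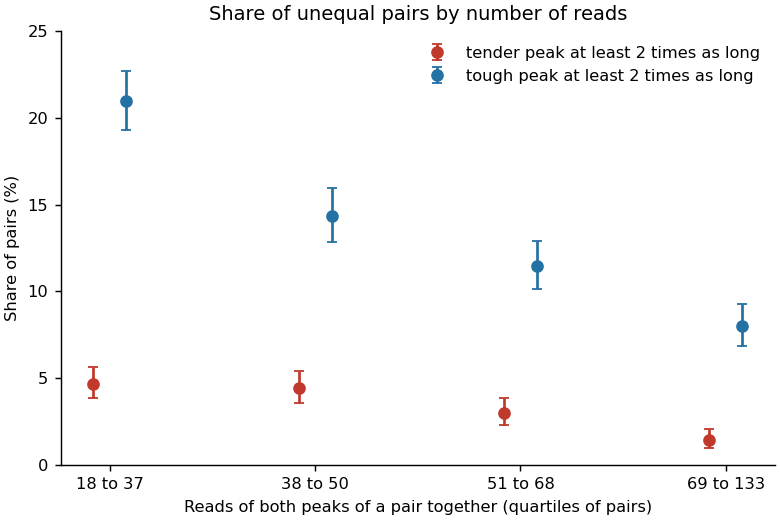
Share of pairs (y axis, %) that were tender-wide (red) or tough-wide (blue) by the number of reads of both peaks together (x axis, quartiles of the 8478 counted pairs). Bars are 95% exact binomial intervals, which cover counting error only. Both shares decline with the number of reads, from 4.68% to 1.44% and from 21% to 8%.

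The tender-wide pairs were spread over the genome. Every chromosome from 1 to 29 held at least 1 of them. The counts were highest on chromosomes 7 and 19 (23 each) and 18 (22), which also hold the most pairs. As a share of the pairs of a chromosome, the values ranged from 1.08% on chromosome 27 (1 of 93) to 4.70% on chromosome 17 (14 of 298). On all 29 chromosomes the 95% exact interval held the genome-wide 3.24%. Some of these intervals were wide, such as 0.0272 to 5.85% on chromosome 27, and differences between chromosomes were not tested.

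**Figure D5:**
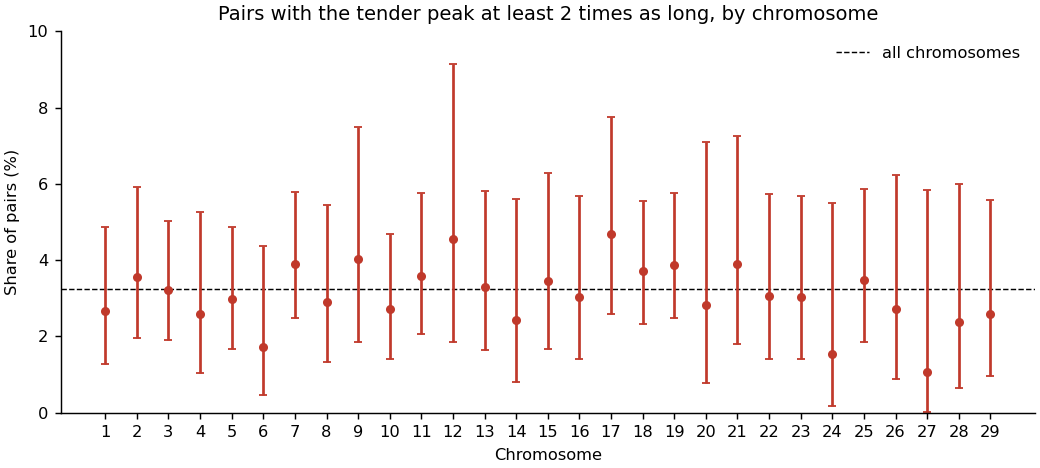
Share of the one-to-one pairs of each chromosome (x axis) that were tender-wide (y axis, %). Bars are 95% exact binomial intervals and the dashed line is the share over all chromosomes, 3.24%. The line passes through every interval, and the intervals are widest on chromosomes with few pairs.

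The nearest other tender-wide pair was a median of 1.96 Mb away (quartiles 0.651 and 5.48 Mb), and 103 of the 300 (34.3%) had one within 1 Mb. In 8 cases 2 neighbouring pairs in the order of the chromosome were both tender-wide, and no 3 in a row were. With 3.24% of all pairs tender-wide, some such neighbours follow from that share alone, and these distances and counts were not compared with those of other pairs. The closest of these lay on chromosome 19, where tender peaks of 3200 bp (20785001 to 20788200) and 3800 bp (20789401 to 20793200) were 1.2 kb apart, over tough peaks of 1400 and 1800 bp. On chromosome 18 the pair with the ratio of 12 was followed at 20 kb by a tender peak of 2200 bp over a tough peak of 800 bp. On chromosome 8 tender peaks of 3200 and 3600 bp, 27.8 kb apart, stood over tough peaks of 1600 and 1000 bp.

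Other peaks were nearer. The gap from a tender-wide pair to the nearest other peak of either library had a median of 18300 bp (quartiles 5550 and 53800 bp). It was 18000 bp for tough-wide pairs and 23200 bp for all pairs. Another tough peak stood within 1000 bp in 12 tender-wide pairs (4.00%), against 4.51% of all pairs. A further tough peak under the tender peak would have removed the pair by the rule, so these shares cover only tough peaks outside the pair. They cannot show whether the tough mark was split into several peaks more often at tender-wide pairs. These counts were not tested.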

How the data were processed

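H3K4me3 was measured by ChIP-Seq in 1 library of pooled chromatin per group, and groups were taken from the sample titles. By the methods, the authors aligned reads with Maq, dropped duplicates and reads with several positions, and then ran SICER (200 bp windows, 400 bp gaps, E-value 100) to find peaks. SICER 1.1 is named in the submitters' processing notes. The deposited values are a SICER score per peak, without normalization between libraries. In this score each window that holds a read adds the negative natural logarithm of its Poisson probability. Of the 2 deposited lists per library, the one with 4 columns was analysed. Its build is not given in the sources used here, and its peaks on chromosome X reach 148.8 Mb. The list with 5 columns, on which chromosome X ends at 87.9 Mb, was taken as the bosTau4 of the methods and served as an alternative chosen after seeing the data. Positions are those of the first list, counted from 1.

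Peaks 1 window long gave the mean number of reads per window, 0.157 (tender) and 0.182 (tough). Every sum of window scores up to 180 was then matched to the deposited scores within 1.5e-09. This gave the reads of 12153 of 12930 tender (94.0%) and 11137 of 11535 tough peaks (96.5%). With the mean raised by 0.1%, 0 were matched. Total reads per library are not in these files. On simulated data with the tender or tough mean, 100% of the reads of 3000 peaks were recovered for each library, and 200 of 200 wide pairs were found. The simulated scores were made with the formula and mean used to read them back, and simulated partners shared their lower end. These results therefore check the code only, not the deposited scores. Intervals are exact binomial and cover counting error only.

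Named pairs are the 5 with the highest ratio, difference in length, tender score and tough score, with 2 on each side of the threshold, and others were chosen after their values were seen. The rule for the pairs and the list of measures were chosen with earlier results of these data known. Alternatives were other ratios, a score threshold, other overlaps, clusters of peaks, chromosome X, equal numbers of peaks, a minimum difference, a lower score limit and reads without depth correction. Python 3.11.15, numpy 2.4.6, pandas 2.3.3, scipy 1.17.1 and matplotlib 3.10.9 were used. Sequences and genes were left out because no genome of the build was at hand.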

Additional observations from a re-analysis of the deposited data

How the results depend on the processing

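With 1 library per group no library could be left out. No paired analysis was possible because the labels give no replicate numbers and each group has 1 library. Of 129 values recomputed under an alternative, 104 stayed within 1.5 times (counts) or within the 95% interval of the value (medians and shares). For 7 of 10 alternatives the tender-wide pairs numbered 278 to 309 and the tough-wide pairs 1092 to 1241. A length ratio of 1.5 gave 880 tender-wide and 2622 tough-wide pairs, with a median tough length of 1400 bp and score of 49.2 in the tender-wide ones. A ratio of 3 left 61 and 325, with a tough median of 800 bp, a score of 36.0, 14 reads and 4 windows with reads, and the tough peak inside in 93.4%. Fewer or more pairs are what these ratios imply. Requiring scores of 2 times each list's minimum left 123 and 596, with a median tough length of 1400 bp, scores of 98.5 and 66.2, 33 and 24 reads (tender and tough), 7 tough windows with reads, and a highest window of 9 in both. Reads counted only up to a score of 100 gave medians of 23 and 14 reads. The bosTau4 lists gave a median of 24 tender reads, and chromosome 21 moved to 0.554 times the genome-wide share of tender-wide pairs (1.2 times in the other lists), the cause of which was not tested. Without correction for depth 65 tender-wide pairs, in place of 95, had at least 2 times the tender reads.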

Other observations

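On chromosome X, left out by the rule, 9 of 222 one-to-one pairs had a tender peak at least 2 times as long as the tough peak. With chromosome X included, 309 of 9474 pairs (3.26%) were tender-wide, against 300 of 9252 (3.24%) without it. The tough-wide pairs numbered 1225 with chromosome X and 1205 without it.

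In the second lists, taken to be on bosTau4, the highest length ratio was 7, on chromosome 19, with 4200 bp and 48 reads in the tender against 600 bp and 9 reads in the tough group. The second was again on chromosome 19, with 5200 bp and 43 reads against 800 bp and 18 reads, a ratio of 6.5. Then followed pairs on chromosome 18 (6400 bp and 37 reads against 1000 bp and 13 reads) and chromosome 10 (3600 bp and 19 reads against 600 bp and 11 reads). These last 2 had the same chromosome, lengths and reads as pairs named for their ratio in the other lists. The ratio of 12 found there on chromosome 18 had no counterpart among the ratios on bosTau4, none of which was above 7. Positions were not compared between the builds. By the difference in length, the second lists were led by a pair on chromosome 15 (8200 bp against 1800 bp) and a pair on chromosome 21 (8000 bp against 2400 bp), followed by the chromosome 18 pair of 6400 bp against 1000 bp.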
